A study of Mus musculus with 16 samples.

Results

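The 10 genes described here are Cd40, Traf1, Cd80, Cd86, Icosl, Cd69, Cd83, Cd44, Slamf1 and Ccnd2, a set of surface activation and costimulation genes of B cells, out of 27670 genes on the array. They were chosen by name from the gene names in the scanner files, with synonyms accepted, and are measured by 18 probes. All 18 probes passed the filter on dim probes, so all 10 genes were among the 20467 genes tested. Coordinates are those of the scanner files (mm7), and exon or UTR annotation in that build was not used here.

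Follicular B cells of C.B17 mice were profiled on dual-colour Agilent arrays. Each of 8 samples was hybridised on 2 arrays with dyes swapped, 16 arrays in all, against a reference RNA pooled from 6 cell lines (P388d, DN3, EL4, J558, RS2 and R1). Auto.Neg cells (n = 2) came from ATAμκTg mice, which carry the VH3609μ/Vk21-5κ receptor against Thy-1 and lack Thy-1. Auto.Pos cells (n = 2) came from AGcAμκTg mice, whose VH3609μ/Vk19-17κ receptor (Vkappa17-17kappa in a further label field) is directed against intestinal goblet cells, and WT cells (n = 2) carried no transgene in the labels. The Edited sample and the Non-edited sample (n = 1 for each) are from VH3609t +/- x Vk21-5Tg +/- mice on the Thy-1 knockout background, so Auto.Neg, Non-edited and Edited share that deletion. Whether samples of a group are separate mice is not stated in the labels, and p-values then measure only the spread between these samples, which may be technical. Each value is the log2 of sample over reference, averaged over the pair of arrays, with n = 2 per group in the 3 tested comparisons. A ratio is set by the level in the cells and in the reference, so ratios of different genes are not compared. In these bulk samples fewer cells of a type and less RNA per cell cannot be told apart.

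A resting follicular B cell that binds antigen places activation receptors and costimulatory ligands on its surface within hours. CD80 and CD86 engage CD28 on T cells, ICOS ligand engages ICOS, and the T cell in return signals through CD40, whose cytoplasmic tail recruits TRAF adaptors. B cells that meet self antigen without T cell help can instead become anergic, a state in which such genes are induced weakly or transiently.

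The samples carried the RNA of B cells. The 10 B cell markers (Ms4a1, Cd79a and others) had a mean ratio between 4.29 and 5.17 in the 8 samples and all were marked by the scanner software as well above background on both arrays of every sample. The T cell list of 10 had a mean ratio of -2.98 to -2.33, the NK cell list -2.02 to -1.07, the plasma cell list -2.64 to -1.72 and the B-1 list -2.35 to -1.64. The macrophage list lay at 0.64 to 2.13, the dendritic cell list at 1.06 to 1.51, the neutrophil list at 1.87 to 4.05 and the erythroid and platelet list at 0.33 to 3.16. Each mean also depends on the level in the cell line reference. A mean below 0 therefore does not show absence, and the lists are not ranked by amount. Detection did not separate these lists, since all measured T cell (10), macrophage (9), plasma cell (6) and B-1 (4) markers were also above background on both arrays of every sample. The share of probes well above background in the sample channel was 61.9% to 81.9% per array. The number of samples, 2 in each tested group, limits the precision, since the 2 arrays of a sample are averaged.

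By limma with Benjamini-Hochberg adjustment over all genes tested, 0 of the 10 genes were called in any of the 3 comparisons among Auto.Pos, Auto.Neg and WT. Among all genes 0.0147% were called between Auto.Pos and Auto.Neg, 0% between Auto.Pos and WT and 0% between Auto.Neg and WT. At an unadjusted p under 0.05 the numbers were 213, 1152 and 942 of 20467 genes, and 1 (Slamf1), 2 (Slamf1 and Ccnd2) and 2 (Cd69 and Ccnd2) of the 10. These comparisons share samples, so their values are given side by side and are not independent. The widest separation among the 10 was that of Slamf1, which was lower in both Auto.Pos samples than in every other sample. Ccnd2 was lower in Auto.Pos and Auto.Neg than in WT, and the single low Cd83 value in Auto.Neg rested on 1 array.

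**Figure D1:**
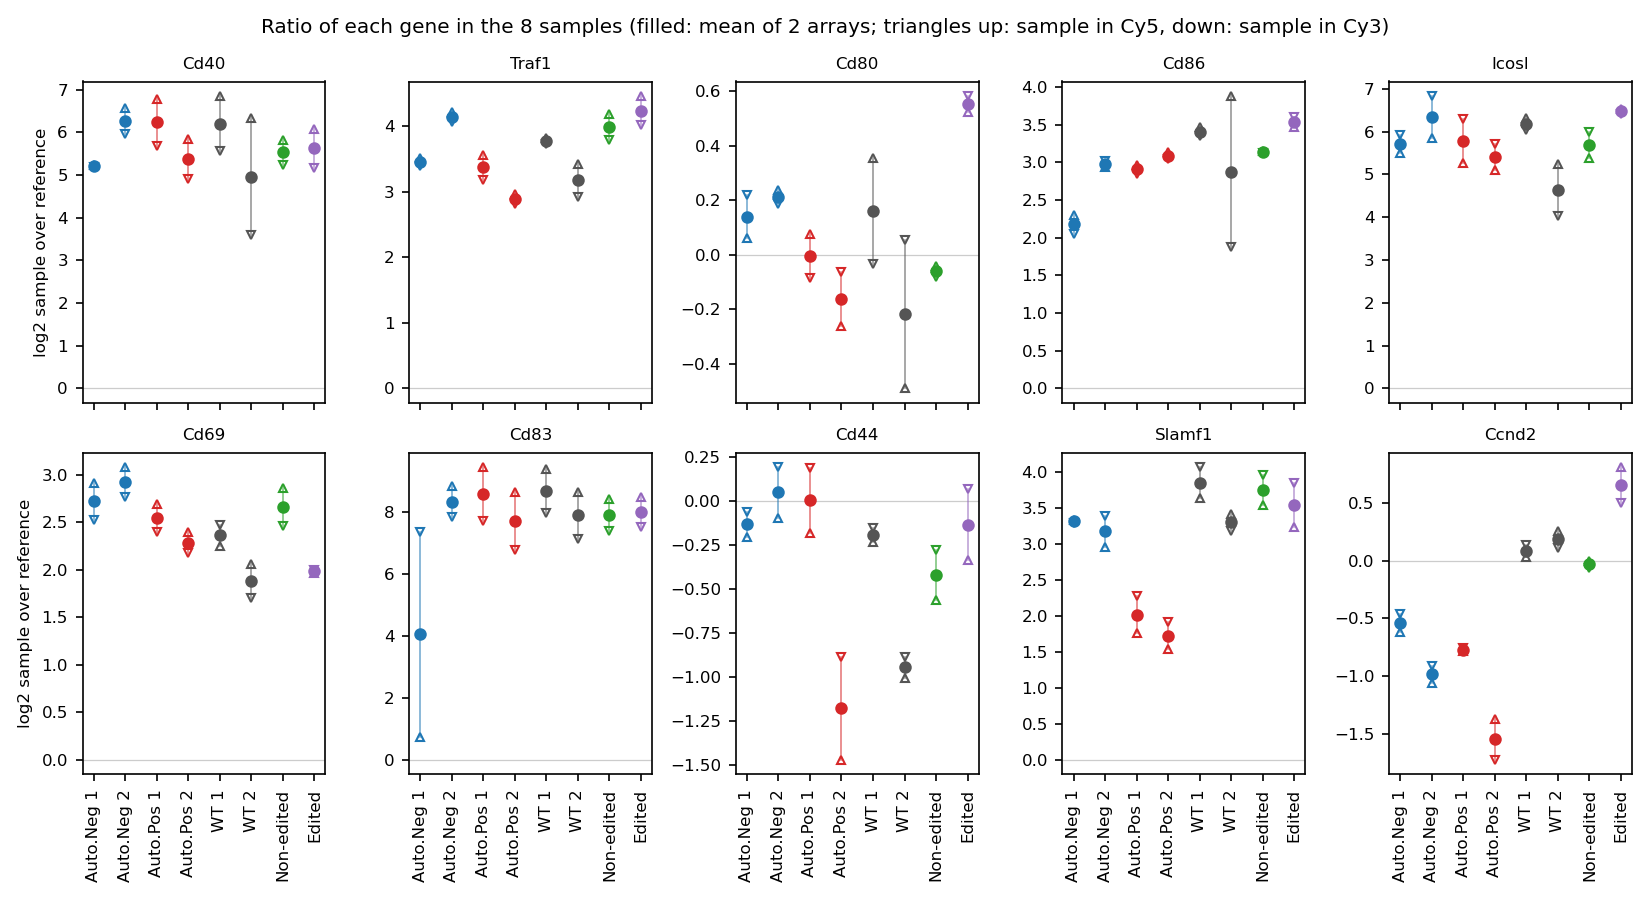
Log2 ratio of sample over reference (vertical axis, one scale per gene) of the 10 genes in each of the 8 samples (horizontal axis; Auto.Neg blue, Auto.Pos red, WT grey, Non-edited green, Edited purple). Filled circles are the mean of the 2 arrays and open triangles the single arrays (up, sample in Cy5; down, sample in Cy3): the Auto.Pos circles of Slamf1, at 2.02 and 1.73, lie below all others, and the array pair of Auto.Neg 1 for Cd83 spans 0.75 to 7.37.

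Cd40 encodes the receptor through which T cell CD40 ligand drives B cell activation. Its ratio was 5.21 and 6.26 for Auto.Neg, 6.23 and 5.37 for Auto.Pos, 6.20 and 4.96 for WT, 5.53 for Non-edited and 5.63 for Edited. The groups overlapped in all 3 comparisons. Auto.Pos differed from Auto.Neg by 0.07 (SE 0.60, adjusted p = 1.00 by limma) and from WT by 0.22 (SE 0.60, adjusted p = 1.00). The Cd40 probe (chr2:164811455-164811514, plus strand) was printed at 10 spots per array, whose SD within an array was 0.06 to 0.20. The 2 arrays of a sample differed by up to 2.74, far more than the spots of an array. Over the samples normalised log2 intensity ranged from 7.45 to 8.69 in the reference channel and from 13.35 to 14.01 in the sample channel. The lowest ratio, in WT 2, is the mean of 6.33 with the sample in Cy5 and 3.59 with it in Cy3. On that second array log ratios were compressed over all genes, with an SD of 1.16 against 1.43 to 1.57 on the other 15 arrays. After scaling all arrays to equal spread, Cd40 lay at -0.70 in Auto.Pos against WT and at -0.39 against Auto.Neg, both of the opposite sign.

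Traf1, an adaptor induced by NF-κB that binds TNF receptor family complexes including CD40, was 3.46 and 4.14 for Auto.Neg and 3.37 and 2.89 for Auto.Pos. It was 3.78 and 3.18 for WT, 3.99 for Non-edited and 4.24 for Edited. Auto.Pos and Auto.Neg did not overlap, and WT overlapped both. Traf1 was 1.59-fold lower in Auto.Pos than in Auto.Neg (log2 difference -0.67, SE 0.37, adjusted p = 1.00 by limma). On slide 2, which held Auto.Neg 2 and Auto.Pos 1, the difference was -0.77. Leaving out Auto.Neg 2 moved it to -0.32 and leaving out Auto.Neg 1 to -1.01. The reference channel of Traf1 was steady, with a range of 0.38 over the samples against 1.22 in the sample channel. Traf1 differed from WT by -0.35 in Auto.Pos and 0.32 in Auto.Neg (SE 0.37 each), and the second value became -0.02 without Auto.Neg 2.

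Cd80 encodes a B7 ligand that is scarce on resting B cells. Its ratio was 0.14 and 0.21 for Auto.Neg, -0.01 and -0.16 for Auto.Pos, 0.16 and -0.22 for WT, -0.06 for Non-edited and 0.55 for Edited. Edited was the highest, and Auto.Pos lay below Auto.Neg without overlap (difference -0.26, SE 0.22, adjusted p = 1.00 by limma). The probe was well above background on 10 of 16 arrays, among them 4 of 4 Auto.Neg and 3 of 4 WT arrays but 0 of 4 Auto.Pos arrays. A bound on sample intensity was computed against the dimmest signals marked above background. Set against it, the Cd80 signal was 1.13-fold lower in Auto.Pos than in Auto.Neg and 1.90-fold lower than in WT. The bound (log2 6.46) lay close to the measured Auto.Pos mean (6.44), and these folds carry no estimate of error. Such bounds use the sample channel alone, averaged over both dyes. The reference channel of the same spots was lower by 0.89 in Auto.Pos than in WT as well, next to 0.95 in the sample channel. On the Cy3 array of WT 2 this spot read 1134 in the sample and 1532 in the reference, against 213 and 316 on that of WT 1. As a ratio, Auto.Pos differed from WT by only -0.06 (SE 0.22), so the bound against WT is not read as lower expression. A second Cd80 probe, above background on 9 of 16 arrays, gave 0.05 between Auto.Pos and Auto.Neg, of the opposite sign. The bound against Auto.Neg is therefore not read as lower expression either.

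Cd86 encodes the B7 ligand that B cells raise first after stimulation. Its brighter probe gave 2.18 and 2.98 for Auto.Neg, 2.91 and 3.09 for Auto.Pos, 3.41 and 2.88 for WT, 3.14 for Non-edited and 3.53 for Edited. Auto.Neg 1 was lowest, while the other 7 samples lay between 2.88 and 3.53, and the groups overlapped. The second probe read 1.94 in Auto.Neg 1, which was not its lowest value. Auto.Neg 2 stood at 1.49, Auto.Pos 1 at 1.65 and WT 2 at 1.16. That WT 2 value is the mean of 1.91 with the sample in Cy5 and 0.40 with it in Cy3. On the brighter probe the 2 arrays of WT 2 read 3.88 and 1.87, and its Cy3 array is the one with compressed log ratios. Auto.Pos differed from Auto.Neg by 0.42 (SE 0.35) and from WT by -0.14 (SE 0.35), and Auto.Neg from WT by -0.56 (SE 0.35), each with an adjusted p of 1.00 by limma. The reference was well above background on only 2 of 16 arrays for either probe, so the denominator of this ratio was close to background. By the scanner software's own log ratio the Auto.Pos to Auto.Neg difference was -0.48, of the opposite sign.

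Icosl encodes the ligand of ICOS, with which B cells sustain follicular helper T cells. It was 5.71 and 6.34 for Auto.Neg, 5.78 and 5.40 for Auto.Pos, 6.17 and 4.63 for WT, 5.68 for Non-edited and 6.47 for Edited. WT 2 was lowest and Edited highest, and the groups overlapped in all 3 comparisons on this probe. A second probe, whose reference was above background on 3 of 16 arrays, gave 1.63 and 0.89 for Auto.Neg, 0.66 and 0.64 for Auto.Pos and 0.87 and 0.32 for WT, with Auto.Pos below Auto.Neg without overlap. Between Auto.Pos and Auto.Neg the probes gave -0.43 (SE 0.56) and -0.61 (SE 0.34), with an adjusted p of 1.00 for both by limma. Between Auto.Neg and WT they gave 0.62 (SE 0.56) and 0.66 (SE 0.34), again at an adjusted p of 1.00. The first probe moved from 0.62 to -0.15 without WT 2, the sample in which the Cd40 ratio was also lowest. In WT 2 this probe read 5.24 with the sample in Cy5 and 4.03 on the Cy3 array, where log ratios were compressed. Against WT, Auto.Pos Icosl was 0.19 on the main scale and -0.80 after scaling arrays to equal spread.

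**Figure D2:**
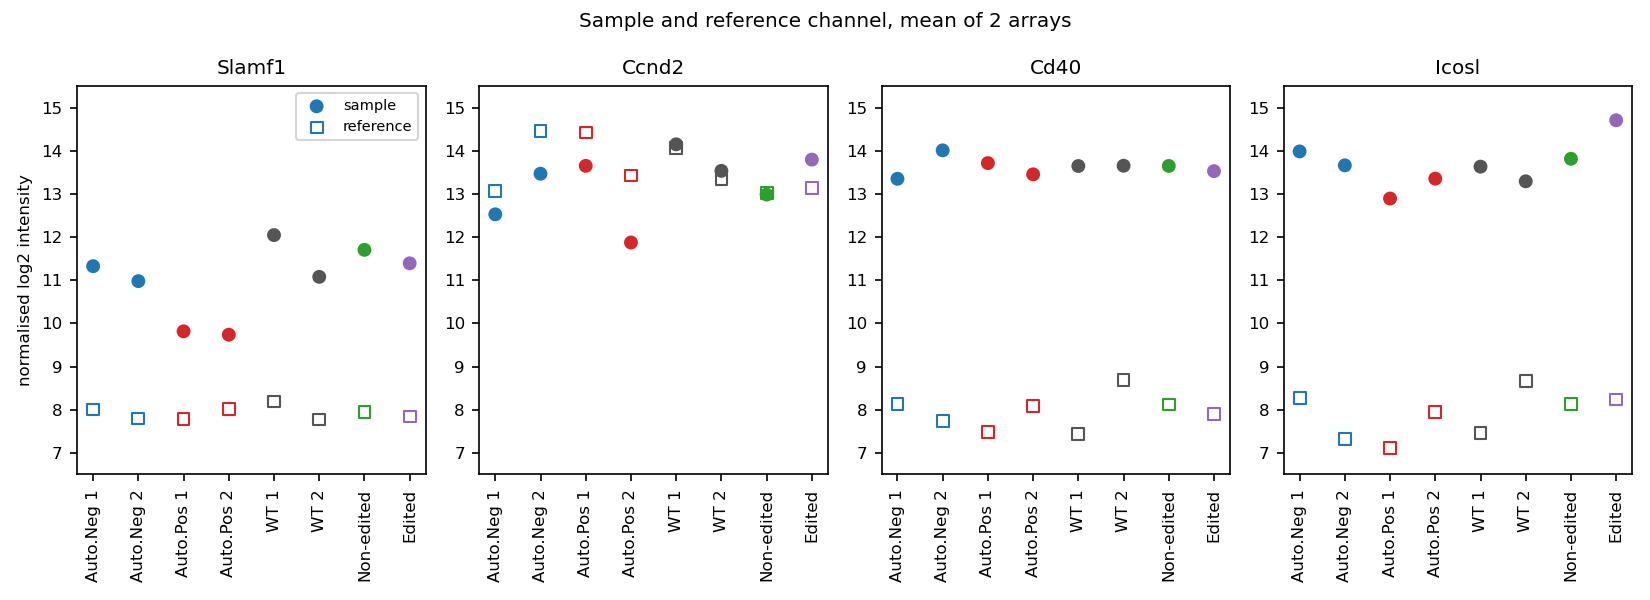
Normalised log2 intensity (vertical axis) of Slamf1, Ccnd2, Cd40 and Icosl in the sample channel (filled circles) and the reference channel (open squares), each the mean of 2 arrays, for the 8 samples (horizontal axis; colours by group). The reference squares of Slamf1 stay within 0.42 while its 2 Auto.Pos circles drop, and for Cd40 the squares range over 1.25, more than the circles.

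Cd69 encodes an early activation lectin that retains lymphocytes in tissue by removing S1P receptor from the surface. Its ratio was 2.72 and 2.92 for Auto.Neg, 2.54 and 2.29 for Auto.Pos, 2.36 and 1.88 for WT, 2.66 for Non-edited and 1.98 for Edited. Both Auto.Neg samples stood above all others, and WT 2 was lowest. Cd69 was 1.62-fold higher in Auto.Neg than in WT (log2 difference 0.70, SE 0.25, adjusted p = 1.00 by limma). Under the older protocol of the scanner software Auto.Neg 2 minus WT 1 was 0.56, and under the newer Auto.Neg 1 minus WT 2 was 0.84. Neither pair shares a slide or scan day, and Auto.Neg 2 and WT 1 were also read on different scanners. Without WT 2 the Auto.Neg to WT difference was 0.46. Auto.Pos minus Auto.Neg was -0.41 (SE 0.25, adjusted p = 1.00 by limma) without overlap, and -0.38 within slide 2. Against WT the Auto.Pos value was 0.29 (SE 0.25), and the groups overlapped. With scan day as a random block it was 0.38 and was called (adjusted p = 0.0478 by limma), in a fit that called 4180 genes.

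Cd83 encodes a surface molecule that appears early on activated B cells and stabilises MHC class II and CD86. Its ratio was 8.34 in Auto.Neg 2, 8.58 and 7.71 for Auto.Pos, 8.68 and 7.90 for WT, 7.90 for Non-edited and 8.01 for Edited, but 4.06 in Auto.Neg 1. Without that sample the range was 0.97, and with it 4.62, larger than that of 99.7% of the genes tested. The 2 arrays of Auto.Neg 1 read 0.75 with the sample in Cy5 and 7.37 with it in Cy3. This gap of 6.62 was the largest of all probes kept on that pair of arrays, whose median gap was 0.19. On the Cy3 arrays of the other 7 samples Cd83 lay between 6.77 and 7.98, around the 7.37 of Auto.Neg 1. On their Cy5 arrays it lay between 8.41 and 9.44, far above the 0.75.

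The raw signals of that spot were low in both channels. On the Cy5 array of Auto.Neg 1 the Cd83 spot had a sample signal of 79.0 over a local background of 50.5, and a reference signal of 31.4 over 36. The reference RNA is common to all arrays, yet on the Cy5 arrays of the other 7 samples it gave 222 to 470 at this spot, and the samples gave 46208 or more. On the second array of Auto.Neg 1 the sample signal was 71288. The spots around it were dim too. Among 63 neighbours within 8 rows and 4 columns that are bright in the reference channel elsewhere, 42 (66.7%) were over 4-fold below the same-dye arrays, with a median log2 deviation of -3.32. Over the whole array 141 of 21292 such spots were that dim. Of the 576 spots of the 10 genes over all arrays, this was the 1 spot with over 5% of its neighbours dim, and the scanner software had not marked it as an outlier.

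The Cd83 probe is shown because it is the 1 probe behind every Cd83 value. Its first 30 bases are printed (60-base probe, chr13:43243266-43243325, plus strand).
Cd83 A_51_P199135: agctattgcgccacgacaggaggaagttct

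With both arrays of every sample, Cd83 was 1.95 higher in Auto.Pos than in Auto.Neg (SE 1.40, adjusted p = 1.00 by limma) and 2.09 lower in Auto.Neg than in WT (difference -2.09, SE 1.40, adjusted p = 1.00 by limma). Without Auto.Neg 1 these values were -0.19 and 0.05. From Cy3 arrays alone they were -0.35 and 0.04, and with the Cy3 array alone for Auto.Neg 1, where the dye no longer cancels, 0.30 and -0.43. The 3 genes whose ratios followed Cd83 most closely over the 8 samples were Slc25a24 (Pearson r = 0.97), an unnamed transcript NAP056427-1 (0.97) and Prmt2 (0.95). Slc25a24 read 0.02 and 4.30 on the arrays of Auto.Neg 1 and Prmt2 -0.06 and 3.54, against lowest values of 4.21 and 3.29 on other arrays. Their spots lie 10 rows and 3 rows from that of Cd83 on the slide. NAP056427-1 lay between -0.14 and 0.17 on every array.

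**Figure D3:**
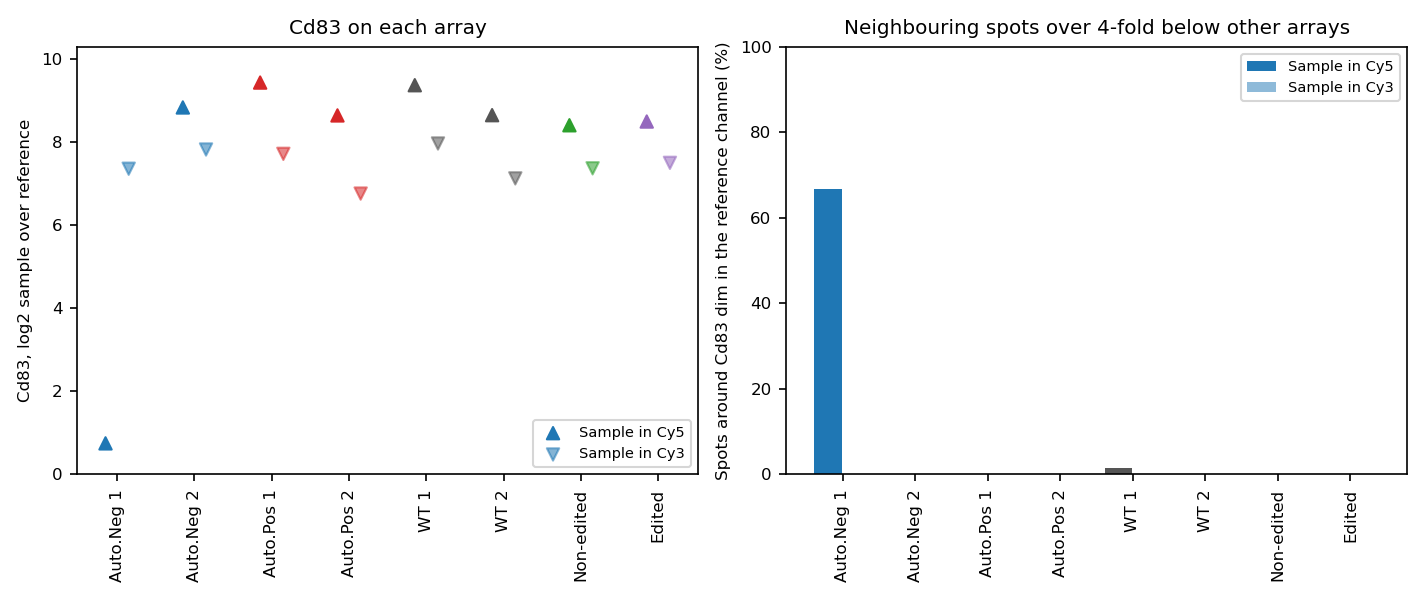
Left, log2 ratio of Cd83 (vertical axis) on each array of the 8 samples (horizontal axis), with the sample in Cy5 (dark, upward triangles) or Cy3 (pale, downward triangles). Right, percentage of the reference-bright spots around the Cd83 spot that were over 4-fold below the same-dye arrays (dark bars, sample in Cy5; pale bars, sample in Cy3): the Cy5 array of Auto.Neg 1, at 66.7%, is also the one with a Cd83 ratio of 0.75.

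Cd44, the hyaluronan receptor that marks antigen-experienced lymphocytes, was measured by 3 probes, of which the 2 brighter ones did not order the samples alike. The probe chosen by brightness gave -0.14 and 0.05 for Auto.Neg, 0.00 and -1.18 for Auto.Pos, -0.20 and -0.95 for WT, -0.42 for Non-edited and -0.14 for Edited. The low samples were Auto.Pos 2 and WT 2, which share scan day 3, and each lay well below the other sample of its group. The second probe, printed at 10 spots, gave -2.24 and -1.04 for Auto.Neg, -0.75 and -2.01 for Auto.Pos and -2.35 and -1.30 for WT, and the samples of each group lay over 1 apart. The third probe was well above background on 10 of 16 arrays, and on 8 of 16 in the reference, so its ratios near 0 are not compared. Auto.Pos minus Auto.Neg was -0.54 (SE 0.47) on the first probe and 0.26 (SE 0.66) on the second. On the first probe Auto.Neg lay above WT by 0.53 (SE 0.47, adjusted p = 1.00 by limma) without overlap, and on the second by 0.19 with overlap.

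Slamf1 encodes CD150, a self-binding receptor of the SLAM family that signals through the adaptor SAP in lymphocyte contacts. Its ratio was 2.02 and 1.73 for Auto.Pos, against 3.32 and 3.18 for Auto.Neg, 3.85 and 3.30 for WT, 3.76 for Non-edited and 3.55 for Edited. Both Auto.Pos samples lay below the other 6, and the 4 Auto.Pos arrays (1.54 to 2.28) did not reach the 12 others (2.96 to 4.07). Slamf1 was 2.60-fold lower in Auto.Pos than in Auto.Neg (log2 difference -1.38, SE 0.27, adjusted p = 1.00 by limma). It was 3.26-fold lower than in WT (difference -1.70, SE 0.27, adjusted p = 0.290 by limma). Between Auto.Neg and WT the difference was -0.33 (SE 0.27, adjusted p = 1.00 by limma), with overlap.

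The lower value lay in the sample channel. Slamf1 intensity there in Auto.Pos differed on the log2 scale by -1.38 from Auto.Neg and by -1.79 from WT, while the reference channel differed by 0.00 and -0.08. Within slide 2 Auto.Pos 1 minus Auto.Neg 2 was -1.16, and within scan day 3 Auto.Pos 2 minus WT 2 was -1.58. Under the newer software protocol Auto.Pos 2 minus Auto.Neg 1 was -1.60, and under the older Auto.Pos 1 minus WT 1 was -1.83. These last pairs share neither slide nor scan day, and Auto.Pos 1 and WT 1 were read on different scanners. Leaving out each sample in turn gave -1.53 to -1.23 against Auto.Neg and -1.98 to -1.43 against WT. With scan day as a random block, Slamf1 was called in both comparisons (-1.18, adjusted p = 0.0336, and -1.59, adjusted p = 0.00394, by limma). That fit called 39 and 4180 genes in all, at an estimated correlation of 0.918 between samples of a day. Marginal zone B cell markers, 6 of 6 above background in every sample, had a mean ratio of 2.10 to 2.38 in Auto.Pos, 1.53 to 1.59 in Auto.Neg and 1.78 to 2.04 in WT. It was 2.63 in Edited, where Slamf1 was 3.55. Of the markers Cd9, a tetraspanin, differed most between Auto.Pos and Auto.Neg (difference 2.64, adjusted p = 0.275 by limma). Cr2 differed the other way, by -0.33 from Auto.Neg and -0.73 from WT. In Auto.Pos 5 of the 6 markers lay higher and 1 lower than in Auto.Neg (median 0.41). Against WT 3 lay higher and 3 lower (median 0.16), so the raised mean does not hold for all markers. Their part in the Slamf1 result was not tested.

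The 2 Slamf1 probes are shown because 1 of them carries the difference and the other was close to background. A_52_P550173, named through the transcript AK156445, aligns at chr1:171770305-171770364 on the plus strand, and its first 30 bases are printed. A_52_P158959, named through NM_013730, lies 7892 bases upstream and spans 4319 bases of the genome (chr1:171758095-171762413), more than its own 60 bases, which are printed whole.
Slamf1 A_52_P550173: ttttagagcctcttatgcttcaaacaacag
Slamf1 A_52_P158959: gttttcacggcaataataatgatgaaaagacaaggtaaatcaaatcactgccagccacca

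The second probe, A_52_P158959, gave ratios of 0.28 and 0.17 for Auto.Neg, 0.17 and 0.26 for Auto.Pos, 0.57 and 0.13 for WT, 0.45 for Non-edited and 0.39 for Edited. The groups overlapped, and Auto.Pos differed from Auto.Neg by -0.01 (SE 0.23) and from WT by -0.14 (SE 0.23), each with an adjusted p of 1.00 by limma. This probe was dim. It was well above background on 3 of 4 Auto.Neg arrays, 3 of 4 WT arrays and 0 of 4 Auto.Pos arrays, and in the reference on 2 of 16 arrays. Set against the same kind of bound (log2 6.49), Auto.Pos intensity was 1.11-fold lower than Auto.Neg (log2 means 6.47 measured and 6.65). Against WT (7.02) it was 1.44-fold lower, and neither fold carries an estimate of error. The reference channel of the same spots differed nearly as much, by -0.17 from Auto.Neg and -0.41 from WT, against -0.18 and -0.55 in the sample channel. On the Cy3 array of WT 2 the spot read 792 in the sample and 1001 in the reference, against 175 and 176 on that of WT 1. By the scanner software's log ratio, put on the log2 scale, the probe read 2.79 and 1.06 for Auto.Neg, 0.98 and 1.04 for Auto.Pos, 1.82 and 0.63 for WT, 2.71 for Non-edited and 2.28 for Edited. These are ratios of signals close to background, and no order of groups is read from them.

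The 3 genes with the highest Pearson correlation with Slamf1 over the 8 samples were Nckap1l (r = 0.97), a subunit of the actin-regulating WAVE complex in blood cells, the predicted gene LOC673099 (0.96) and Spns3 (0.93). These are descriptions over 8 samples that share slides and scan days.

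Ccnd2 encodes cyclin D2, the D-type cyclin that mature B cells induce to enter the cell cycle after receptor ligation. Its brightest probe gave 0.08 and 0.19 for WT, -0.54 and -0.99 for Auto.Neg, -0.77 and -1.55 for Auto.Pos, -0.03 for Non-edited and 0.65 for Edited. All 4 samples of the Auto.Neg and Auto.Pos groups lay below WT, Non-edited and Edited, and these 2 groups overlapped. Ccnd2 was 2.46-fold lower in Auto.Pos than in WT (log2 difference -1.30, SE 0.33, adjusted p = 0.604 by limma). It was 1.87-fold lower in Auto.Neg than in WT (difference -0.90, SE 0.33, adjusted p = 1.00 by limma). Auto.Pos minus Auto.Neg was -0.40 (SE 0.33, adjusted p = 1.00), and -0.01 without Auto.Pos 2.

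Within scan day 3, Ccnd2 in Auto.Pos 2 minus WT 2 was -1.74. Under the older software protocol it was -0.86 in Auto.Pos 1 and -1.07 in Auto.Neg 2 against WT 1. Under the newer it was -0.73 in Auto.Neg 1 against WT 2, and none of these protocol pairs shares a slide or scan day. Auto.Pos 1 and Auto.Neg 2 were also read on a different scanner than WT 1. On slide 2 Auto.Pos 1 minus Auto.Neg 2 was 0.22. With scan day as a random block both differences from WT were called (-1.63, adjusted p = 0.00867, and -1.72, adjusted p = 0.0460, by limma), in a fit that called 4180 and 459 genes. The reference channel of this probe ranged from 13.02 to 14.45 and differed between Auto.Pos and WT by 0.22, against -1.08 in the sample channel. The highest reference values were on slide 2, at 14.42 in Auto.Pos 1 and 14.45 in Auto.Neg 2. The sample channel read 13.65 in Auto.Pos 1 and 13.47 in Auto.Neg 2, against 14.15 in WT 1 and 13.53 in WT 2. It was 11.87 in Auto.Pos 2 and 12.53 in Auto.Neg 1. So in the sample channel Auto.Pos 1 lay above WT 2, and its lower ratio went with a brighter reference. Plasma cell markers, with 6 of 6 above background, had a mean ratio of -2.64 to -2.27 in Auto.Pos and -2.57 to -1.87 in Auto.Neg. In WT it was -1.97 to -1.72. It was -2.21 in Non-edited and -2.16 in Edited, where Ccnd2 was -0.03 and 0.65. Against WT all 6 markers lay lower in Auto.Pos, but 4 lower and 2 higher in Auto.Neg. Their part in the Ccnd2 result was not tested.

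The 3 Ccnd2 probes are shown because they differ in how far they follow the pattern. Ccnd2 lies on the minus strand of chromosome 6, so A_52_P53906 (chr6:127173178-127173237) is the most 5′, A_51_P433228 (chr6:127163669-127163728) the middle and A_52_P514391 (chr6:127154070-127154129, first 30 bases printed) the most 3′.
Ccnd2 A_52_P53906: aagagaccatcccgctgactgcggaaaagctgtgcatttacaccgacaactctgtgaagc
Ccnd2 A_51_P433228: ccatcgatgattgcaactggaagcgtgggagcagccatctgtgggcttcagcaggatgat
Ccnd2 A_52_P514391: gtctctccgtcgcatactcttgctgactaa

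The 5′ probe gave -0.04 and 0.07 for WT, -0.32 and -1.09 for Auto.Neg and -0.82 and -1.32 for Auto.Pos, so WT lay above both groups without overlap, as on the middle probe. Its differences from WT were -1.09 in Auto.Pos (SE 0.34, adjusted p = 0.796 by limma) and -0.71 in Auto.Neg (SE 0.34, adjusted p = 1.00). In its sample channel, though, Auto.Pos 1 (12.90) lay above both WT samples (12.80 and 12.66), with Auto.Pos 2 below them at 11.27. The 3′ probe gave -0.55 and 0.51 for WT, -0.70 and -0.21 for Auto.Neg and -0.12 and -1.52 for Auto.Pos, and all 3 groups overlapped. Its differences from WT were -0.81 and -0.43 (SE 0.60 each). The genes most like Ccnd2 over the 8 samples were Bhlhe40 (Pearson r = 0.95), a transcriptional repressor, the phosphatase gene Ptpn11 (0.95) and Creb5 (0.95), a CREB family transcription factor.

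**Figure D4:**
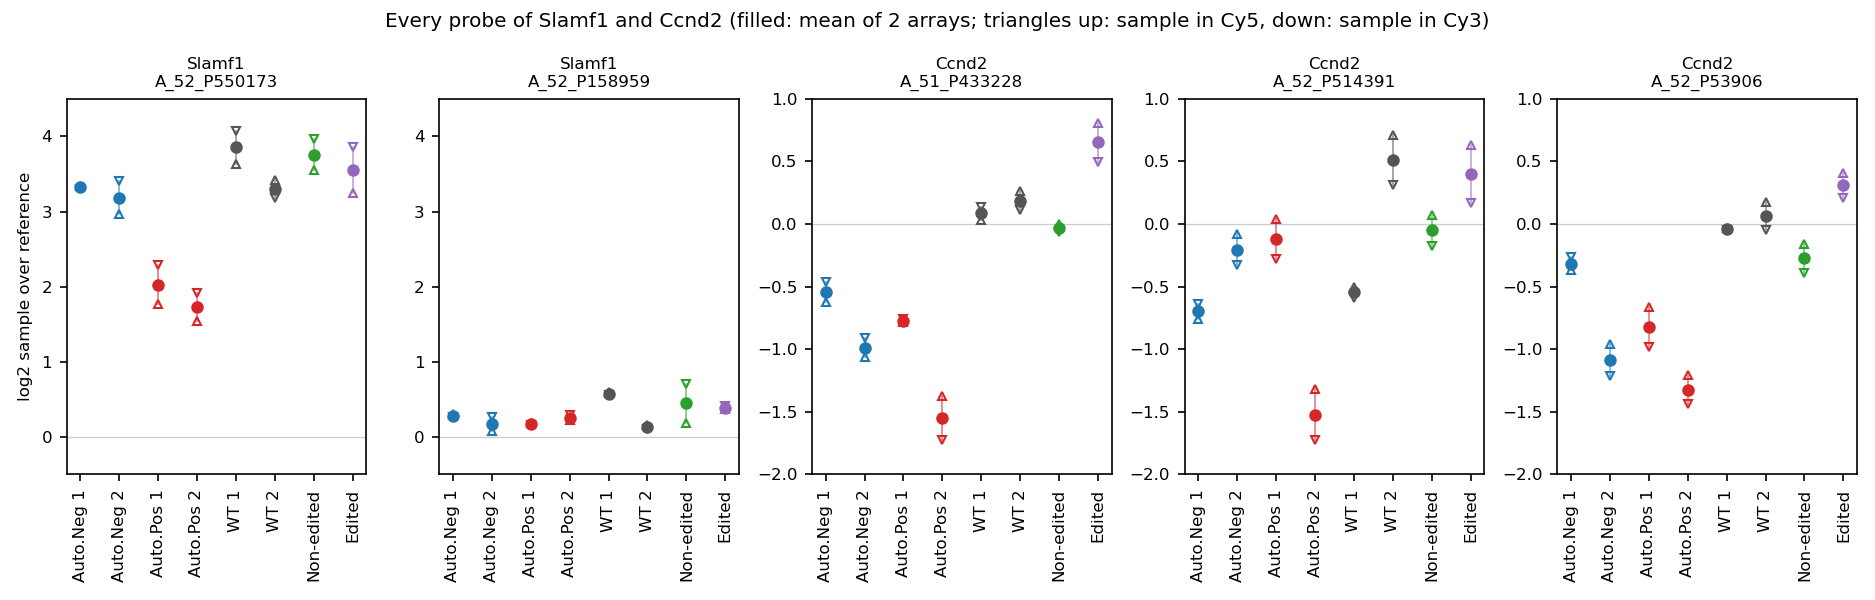
Log2 ratio of sample over reference (vertical axis) for the 2 probes of Slamf1 and the 3 probes of Ccnd2 in the 8 samples (horizontal axis; Auto.Neg blue, Auto.Pos red, WT grey, Non-edited green, Edited purple; filled circles, mean of 2 arrays; triangles, single arrays). Auto.Pos is lowest on Slamf1 A_52_P550173 (2.02 and 1.73) and all groups lie near 0 on A_52_P158959, which was close to background, and WT lies above Auto.Pos and Auto.Neg on 2 of the 3 Ccnd2 probes.

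Over the 10 genes, 3 lay higher and 7 lower in Auto.Pos than in Auto.Neg (53.4% and 46.6% of all genes), with a median difference of -0.40 against 0.02 for all genes. Of them 4 did not overlap between the groups, all lower in Auto.Pos (Slamf1, Traf1, Cd69 and Cd80). Of all genes 19.2% did not overlap, 11.1% higher and 8.17% lower. At least 2-fold apart in the means were 2, Slamf1 and Cd83, against 0.958% of all genes. Between Auto.Pos and WT 3 lay higher and 7 lower (60.1% and 39.9% of all genes; median -0.10 against 0.06). Slamf1 and Ccnd2, 2 of the 10, were lower without overlap, while 29.6% of all genes did not overlap, 19.2% higher and 10.4% lower. Both were over 2-fold apart, against 4.61% of all genes. Between Auto.Neg and WT 6 lay higher and 4 lower (57.6% and 42.4% of all genes; median 0.18 against 0.04). Of the 10, 3 did not overlap, against 25% of all genes. Cd69 and Cd44 were higher without overlap (15.4% of all genes) and Ccnd2 lower (9.57%), and Cd83 alone passed 2-fold (3.77%). Without Auto.Neg 1, whose Cy5 array holds the dim spot, Cd83 was not 2-fold apart in either comparison that counts it (-0.19 for Auto.Pos minus Auto.Neg, 0.05 for Auto.Neg minus WT). Its sign turned in both. Cd83 thus counts as higher in Auto.Pos than in Auto.Neg, and as lower in Auto.Neg than in WT, only with that sample. Of the 10 genes 4 had their lowest value in Auto.Pos 2 and 4 in WT 2, where 11.4% and 17.0% of all genes had theirs. Those in WT 2 were Cd40, Icosl, Cd69 and Cd80, and its Cy3 array had compressed log ratios. On that array Cd40 read 3.59 (6.33 on the Cy5 array), Icosl 4.03 (5.24), Cd69 1.70 (2.07) and Cd80 0.06 (-0.49).

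**Figure D5:**
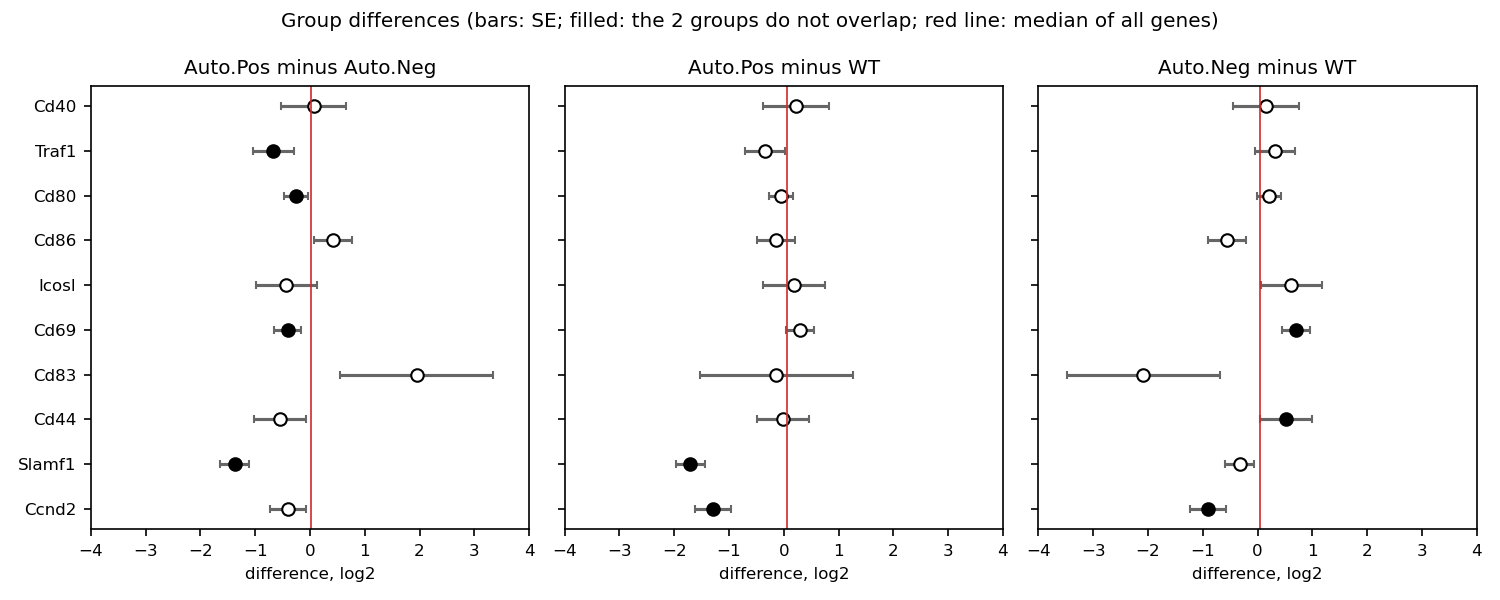
Difference in log2 ratio (horizontal axis) between Auto.Pos and Auto.Neg, Auto.Pos and WT, and Auto.Neg and WT for the 10 genes, with the SE of the limma fit as bars and the median of all genes as a red line. Filled points mark genes whose groups of 2 samples do not overlap: Slamf1 lies at -1.38 and -1.70 in the first 2 panels, and the Cd83 points carry the widest bars (SE 1.40).

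Edited and Non-edited have 1 sample each, so no test was made, and a gene counted as different where it was at least 2-fold apart the same way on both dye orientations. This held for 0 of the 10 genes and for 1.4% of 20348 genes. Icosl had the largest difference among the 10, 0.79, with 1.14 on the Cy5 arrays and 0.44 on the Cy3 arrays, and its second probe read 1.65 for Edited and 1.26 for Non-edited. Ccnd2 was 0.68 higher in Edited (0.81 and 0.56) and Cd80 0.61 (0.57 and 0.66). Cd69 differed the other way at -0.67 (-0.89 and -0.46). The remaining differences were 0.39 for Cd86, 0.28 for Cd44, 0.25 for Traf1, 0.11 for Cd83, 0.10 for Cd40 with opposite signs on the 2 arrays, and -0.21 for Slamf1. Edited was the highest of the 8 samples for 5 of the 10 genes (Cd86, Cd80, Icosl, Traf1 and Ccnd2), and for 8.88% of all genes. Above Non-edited lay 8 of the 10, with a median of 0.27, and 44.9% of all genes, with a median of -0.03.

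Genes of the same pathways were counted from 5 lists. In none of them was a gene called by limma in any comparison, against the shares given above for all genes, and the medians stood between -0.07 and 0.15. Of 17 measured B7, CD28 and TNF family costimulation genes, 6 lay higher and 11 lower in Auto.Pos than in Auto.Neg, from Tnfrsf14, which encodes HVEM, at -0.58 to Icos, the receptor of ICOS ligand, at 0.34. Against WT, Tnfrsf14 stood at 1.02 in Auto.Neg, and Tnfsf8, the CD30 ligand, at 0.76 in Auto.Pos. The lowest was the B7 homologue Cd276, at -0.46 in Auto.Pos and -0.49 in Auto.Neg. In both comparisons with WT 11 lay higher and 6 lower.

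Of 19 genes of CD40 and TRAF signalling, 9 lay higher and 10 lower between Auto.Pos and Auto.Neg (Chuk, an IκB kinase, 0.51; Traf4 -0.55). The adaptor Traf3, which restrains the non-canonical NF-κB pathway downstream of CD40, was -0.21 and -0.12 for Auto.Neg, -0.07 and -0.23 for Auto.Pos and 0.61 and 1.44 for WT. WT lay above both groups, by differences of -1.17 for Auto.Pos and -1.19 for Auto.Neg (SE 0.32, adjusted p = 0.637 and 0.847 by limma), and Non-edited and Edited read 0.01 and 0.16. The genes furthest above WT were Chuk at 0.63 in Auto.Pos and Birc3, the inhibitor cIAP2, at 0.57 in Auto.Neg, and in each of these comparisons 10 lay higher and 9 lower.

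Of 10 measured SLAM family and adaptor genes, 5 lay higher and 5 lower in each comparison, from Slamf6 at -0.44 to Cd244a at 0.40 between Auto.Pos and Auto.Neg. Sh2d1a, which encodes SAP, was furthest above WT (0.65 in Auto.Pos, 0.81 in Auto.Neg) and Slamf9 furthest below (-0.84 and -0.59). No other SLAM gene was as far below Auto.Neg in Auto.Pos as Slamf1, at -1.38. Of 15 genes of D-type cyclins and G1 control 7 lay higher and 8 lower in each comparison. The cell cycle inhibitor Cdkn2c (0.68) and the cyclin Ccne2 (-0.23) were the furthest apart between Auto.Pos and Auto.Neg. Cdk6, a kinase partner of cyclin D2, lay 0.91 above WT in Auto.Pos and 0.72 in Auto.Neg, the opposite sign to Ccnd2 (adjusted p = 0.727 and 1.00 by limma). Furthest below WT were E2f1 at -0.70 in Auto.Pos and Rbl1 at -0.53 in Auto.Neg.

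Of 20 adhesion and early surface activation genes 11 lay higher and 9 lower between Auto.Pos and Auto.Neg, 10 and 10 between Auto.Pos and WT, and 11 and 9 between Auto.Neg and WT. The integrin gene Itga4 was highest in Auto.Pos (0.89 against Auto.Neg, 1.28 against WT). The inhibitory coreceptor gene Cd72 was lowest there, with 0.62 and 0.92 for Auto.Pos against 2.69 and 2.76 for WT, and with both Auto.Neg samples between them. Its differences were -0.85 (SE 0.38) from Auto.Neg and -1.96 (SE 0.38, adjusted p = 0.436 by limma) from WT. In Auto.Neg against WT the ends were Klf2 at 0.65 and S1pr1, the receptor that Cd69 removes from the surface, at -1.15.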

How the data were processed

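The authors deposited scanner files with mean spot intensity and median local background in both channels, per the file headers written by Agilent Feature Extraction 9.1.1.1, 9.1.3.1 and 9.5.1.1, and a log10 ratio of red over green that the software had corrected for background and dye (lowess). A deposited table of the whole series holds log2 ratios, for which the submitters' processing notes name limma; its step is not given in the sources used here, and it has 0 columns of no sample. RNA (100 ng per the labels' protocols) was amplified.

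In R 4.3.3 with limma 3.58.1 and data.table (1.17.8), intensities were corrected by normexp (offset 50) and loess (controls at weight 0), outlier spots dropped and probe spots averaged. Every ratio was signed as sample over reference, and each pair of arrays averaged. Probes well above background on both arrays of at least 2 samples were kept (29637 of 41174), and a gene was its brightest probe. limma fitted 5 group means (3 residual and 2.11 prior degrees of freedom) and called genes at an adjusted p under 0.05. Channel intensities are after loess and Aquantile.

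All 10 genes are named, and of each list the genes furthest from 0 and any called; for genes ranging over at least 2 log2, the 3 most correlated. Members and lists were chosen with earlier results of these data known. Probe sequences are from the scanner files. Alternatives changed the normalization, the filter on dim probes, the choice of probe, the dye, the block or the samples included.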

Additional observations from a re-analysis of the deposited data

How the results depend on the processing

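Slamf1 was lower in Auto.Pos than in WT under all 22 alternatives (-2.32 to -0.79). So were Ccnd2 (-1.69 to -0.57) and Traf1 (-1.04 to -0.05), so a kept sign does not set Slamf1 apart. The number of genes called was 3 between Auto.Pos and Auto.Neg, 0 between Auto.Pos and WT and 0 between Auto.Neg and WT. Between Auto.Pos and Auto.Neg it was 1 with median centring, 0 with scale normalization and 0 with no filter on dim probes. It was 12 from the Cy5 arrays alone and 0 from the Cy3 arrays alone. It was 6 with software protocol as a block and 39 with scan day as a random block. Between Auto.Pos and WT it was 15 with the scanner log ratio, 6 with scale normalization, 14 with the series table rematched to arrays, 72 from Cy5 arrays and 4180 with scan day. Between Auto.Neg and WT it was 1 with the rematched table, 60 from Cy5 arrays and 459 with scan day. Edited and Non-edited differed at 808 genes by the scanner log ratio, against 284. The cause was not tested. With sample number as a replicate block 0 genes were called between Auto.Pos and Auto.Neg. The deviations of same-numbered samples correlated at -0.79, 0.25 and -0.28 in the 3 comparisons, so the number was not taken as a pairing. With 2 samples per group, crossing the numbers only turns the sign, to 0.79 for Auto.Pos and Auto.Neg, and adds no information. Auto.Pos 1 and Auto.Neg 2 share slide 2, scan day 2 and scanner 2. The main fit had no term for slide, scan day or scanner. Slide as a random block could not be fitted and was not run. Taking Auto.Neg 1 from its Cy3 array alone was chosen after seeing the data.

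In the series table as labelled, 10 of 16 columns match another array best, and the 2 columns of each Auto.Neg sample oppose in sign. It called 7704 genes between Auto.Pos and Auto.Neg and 6964 between Auto.Neg and WT, and turned these signs. Auto.Pos minus Auto.Neg became 2.34 for Cd69, 0.039 for Cd80, 5.98 for Icosl, 2.92 for Slamf1 and 3.45 for Traf1. Auto.Pos minus WT became 2.01 for Cd83 and 0.62 for Cd86. Auto.Neg minus WT became -2.33 for Cd69, -0.050 for Cd80, -5.43 for Cd40, -5.43 for Icosl, -3.56 for Traf1 and 0.10 for Ccnd2.

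Other signs turned as follows, with the cause not tested. From Cy3 arrays, Auto.Pos minus Auto.Neg was -0.35 for Cd83 and -0.27 for Cd40, Auto.Pos minus WT 0.33 for Cd86 and 0.17 for Cd44, and Auto.Neg minus WT 0.044 for Cd83. From Cy5 arrays, Auto.Pos minus WT was 0.029 for Cd83, -0.28 for Cd40 and -0.59 for Icosl, and Auto.Neg minus WT -0.68 for Cd40 and -0.10 for Icosl. The scanner log ratio gave Cd86 as -0.48, 0.26 and 0.74 in the 3 comparisons. Median centring gave Cd40 as -0.070 (Auto.Pos minus Auto.Neg) and Cd80 as 0.033 (Auto.Pos minus WT). Scale normalization gave Cd40 as -0.39, -0.70 and -0.31 in the 3 comparisons, Cd69 as -0.16, Cd44 as 0.18 and Icosl as -0.80 in Auto.Pos minus WT, and Traf1 as -0.15 in Auto.Neg minus WT. Scan day gave Ccnd2 as 0.090 (Auto.Pos minus Auto.Neg), Cd86 as 0.11 and Cd80 as 0.033 (Auto.Pos minus WT), and Cd86 as 0.069 and Cd44 as -0.070 (Auto.Neg minus WT). The mean of all probes gave Cd44 as 0.17 (Auto.Pos minus WT) and Cd80 as -0.054 (Auto.Neg minus WT).

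Leaving out each sample in turn moved Auto.Pos minus Auto.Neg over -0.19 to 4.09 for Cd83, -0.46 to 0.59 for Cd40 and -1.13 to 0.045 for Cd44. Auto.Pos minus WT ran over -0.58 to 0.30 for Cd83, -0.41 to 0.12 for Cd86, -0.24 to 0.13 for Cd80, -0.40 to 0.84 for Cd40, -0.61 to 0.57 for Cd44 and -0.58 to 0.96 for Icosl. Auto.Neg minus WT ran over -4.23 to 0.050 for Cd83, -0.46 to 0.78 for Cd40, -0.15 to 1.39 for Icosl and -0.024 to 0.66 for Traf1. A group left with 1 sample is assumed to vary like the others. Signal close to background limits Cd80, the second Slamf1 probe, the third Cd44 probe and the reference of Cd86 and of the second Icosl probe.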
